A study of Drosophila melanogaster with 10 samples.

Results

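The enzyme genes wun, alpha-Est1, Adgf-A and ome were examined after RNA interference (RNAi) against subunits of Polycomb repressive complex 1 (PRC1). They were chosen by name, as enzyme genes with nascent RNA signal below mock in both RNAi groups, and make up 4 of the 7624 genes with values. The deposited values bore this out for 3 of them, wun, alpha-Est1 and Adgf-A. The nascent signal of ome was below mock in 1 group only and above it in the other, so the 4 genes are treated below as 3 lowered genes and 1 that went both ways. Since the nascent signal chose them, its values, with the authors' q for them, are given as a description that supports nothing, and the one readout used as a test is total RNA.

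The cells were ML-DmBG3-c2, a single fly cell line that comes from the central nervous system of larvae, grown with calf serum and insulin. The groups of nascent RNA libraries were 3 from cells treated with double-stranded RNA against Ph (Polyhomeotic), 4 from cells treated against Sce (the fly RING1 homolog) and 3 from mock-treated cells. Nascent RNA was taken from chromatin, and uncapped and polyadenylated RNA was depleted before sequencing, so that the signal stands for transcripts still being made. For each gene the table gives the authors' mean signal in each group, without values per library, and the authors' ratio, p and q for 5 comparisons. Of these, 2 compared nascent RNA (Ph RNAi or Sce RNAi against mock) and 3 compared total RNA (Ph, Sce or Pc RNAi against mock), the last from libraries outside the 10 samples. The comparisons within each kind of RNA share their mock libraries.

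PRC1 is best known for keeping developmental genes silent through chromatin, and the series asks, by its title, how it acts on active genes. The wun gene encodes a lipid phosphate phosphatase of the cell membrane that removes phosphate from extracellular lipids, and wunens are known for steering and sustaining migrating germ cells in the fly embryo. The alpha-Est1 gene belongs to the alpha-esterase cluster of carboxylesterases, which cleave carboxylic esters. Adgf-A encodes a secreted adenosine deaminase that turns extracellular adenosine into inosine and so limits signalling through the adenosine receptor AdoR. The ome gene encodes a dipeptidyl peptidase of the DPP4 type, an enzyme that cuts short units from the amino end of peptides.

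The labels were checked on the targeted genes. In nascent RNA ph-p and ph-d, which both encode Ph, were at 4.87 and 5.39 times mock in the libraries labelled Ph RNAi, and Sce was at 118 times mock in the libraries labelled Sce RNAi. In the authors' deposited table the total RNA ratios were 8.64 for ph-p and 8.09 for ph-d after Ph RNAi, 27.0 for Sce after Sce RNAi and 21.5 for Pc after Pc RNAi. Each targeted gene was thus higher in the group that bears its name, and the groups are called the libraries labelled Ph RNAi, Sce RNAi and Pc RNAi, with all directions resting on those labels. The sums of the nascent columns, 192278102 for Ph RNAi, 192180746 for Sce RNAi and 191793598 for mock, were nearly equal, so a change of all genes together could not be seen. As these are bulk cultures, fewer cells of a type and less RNA per cell cannot be told apart.

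The nascent signal of wun averaged 20049 in the libraries labelled Ph RNAi and 26270 in those labelled Sce RNAi, against 60432 in mock. Both RNAi groups lay below mock, by 3.01-fold and 2.30-fold, and the Ph RNAi mean was the lower of the pair at 0.763 of the Sce RNAi mean. In the authors' deposited table wun had a q listed at 0 in both nascent comparisons, which stands for a value under 0.0005. Its ratio was the 131st lowest of 7624 after Ph RNAi and the 168th lowest after Sce RNAi, counting ties.

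The alpha-Est1 gene was also below mock in both groups. Its nascent signal averaged 90.1 in the libraries labelled Ph RNAi and 613 in those labelled Sce RNAi, against 2770 in mock, which is 3.25% and 22.1% of mock. The signal was 30.7-fold lower after Ph RNAi and 4.52-fold lower after Sce RNAi, where the authors' deposited table lists q of 0.012 and 0. Only 8 of 7624 genes had a nascent ratio at or below that of alpha-Est1 after Ph RNAi. Its Ph RNAi mean lay below 581 signal units, the 10th percentile of all nascent means, so the size of the fold is uncertain and depends on the pseudocount. On the log2 scale with 581 added to each mean as a pseudocount, the difference came to -2.32 for Ph RNAi and -1.49 for Sce RNAi.

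Adgf-A averaged 10301 in the libraries labelled Ph RNAi and 16939 in those labelled Sce RNAi, against 47303 in mock. These means were 4.59-fold and 2.79-fold below mock, for which the authors' deposited table lists q of 0.054 and 0.135. For wun, alpha-Est1 and Adgf-A alike the order of the means was Ph RNAi lowest, Sce RNAi next and mock highest. The authors' table holds no comparison of Ph RNAi with Sce RNAi and no spread between libraries, so the order of the RNAi groups was not tested.

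The ome gene had another order. Its nascent signal averaged 90010 in the libraries labelled Ph RNAi and 9417 in those labelled Sce RNAi, against 28254 in mock. It was thus 3.19 times mock after Ph RNAi and 3.00-fold below mock after Sce RNAi, and the Ph RNAi mean was 9.56 times the Sce RNAi mean. For these differences the authors' deposited table lists q of 0.104 for Ph RNAi and 0.508 for Sce RNAi. Of all genes tested, 2.48% had q under 0.05 after Ph RNAi and 0.118% after Sce RNAi (0.787% and 0.0525% lower), while 35.2% had nascent ratios under 1 in both comparisons and 1.57% had ratios under 0.5 in both. These shares are the setting in which the 4 genes were picked, and nothing is read from their own calls.

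**Figure D1:**
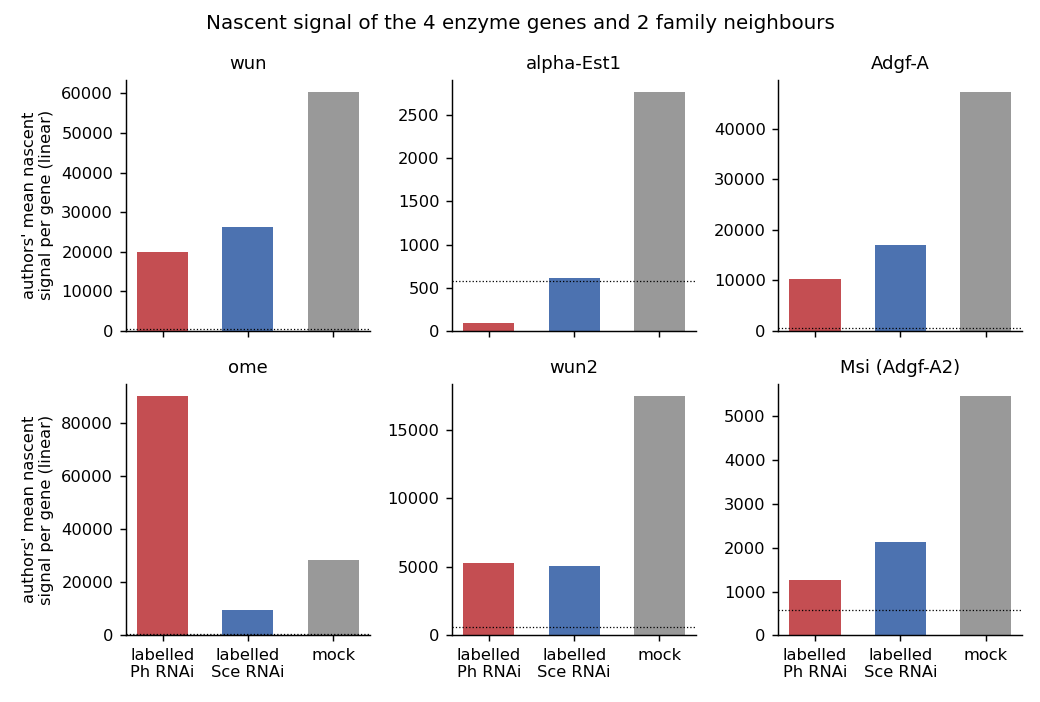
Authors' mean nascent signal per gene (linear scale, each panel with its own axis from 0) for the 4 enzyme genes and the family neighbours wun2 and Msi (Adgf-A2), in libraries labelled Ph RNAi (n = 3) and Sce RNAi (n = 4) and in mock (n = 3). Bars are group means with no error available, and the dotted line marks 581 signal units. Mock is the highest bar for every gene shown except ome, whose Ph RNAi bar stands at 90010.

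Total RNA, which the choice of genes did not use, was measured in other libraries. The group means of total RNA were not used, so none of its ratios was checked for low signal. The size of large total RNA folds, here and below, is therefore uncertain. In the authors' deposited table Adgf-A fell in total RNA after Sce RNAi, to 0.385 of mock, with a q of 0.043. Of 7624 genes, 0.249% had q under 0.05 in that comparison, 18 of them higher (0.236% of all genes) and 1 lower (0.0131%), and the 1 lower gene was Adgf-A. The authors' deposited table gives it total RNA ratios of 0.647 after Ph RNAi (q 0.206) and 0.619 after Pc RNAi (q 0.101), which did not pass. The q after Sce RNAi rests on a p listed at 0, and Benjamini-Hochberg adjustment with such entries read as 0.0005 gave 0.141. The gene model of Adgf-A also contains those of other genes, Msi among them. How far its total RNA value includes their reads was not tested.

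For ome, total RNA was above mock under all 3 labels. In the authors' deposited table its ratio was 69.6 after Ph RNAi, 3.29 after Sce RNAi and 7.06 after Pc RNAi. The rise after Pc RNAi passed (q 0.005, authors' deposited table), in a comparison where 3.19% of genes had q under 0.05 and 3.04% rose. The ratios after Ph RNAi and Sce RNAi did not pass (q 0.111 and 0.274, authors' deposited table). After Sce RNAi the 2 kinds of RNA thus lay on opposite sides of mock for ome, at 0.333 times mock in nascent RNA and 3.29 times mock in total RNA, a gap of 3.30 in log2 that was not tested.

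In total RNA the authors' deposited table puts wun at 0.251, 0.464 and 0.262 of mock after Ph, Sce and Pc RNAi. None passed, as the authors' deposited table lists q of 0.135, 0.292 and 0.289. For alpha-Est1 the authors' deposited table gives total RNA ratios of 0.239, 0.223 and 0.079 in the same order, with q of 0.154, 0.251 and 0.242, so none passed for this gene either. At 0.079 after Pc RNAi, alpha-Est1 lay 12.7-fold below mock, and 17 of 7624 genes had a ratio that low or lower. Across the 4 genes, 2 of the 12 total RNA values passed, 1 lower and 1 higher. Of all genes tested, 3.88% had q under 0.05 in total RNA after Ph RNAi, where 0 of the 4 did.

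Ratios in nascent and total RNA were set side by side. For Sce RNAi the log2 ratio in total RNA minus that in nascent RNA was 0.09 for wun, 0.01 for alpha-Est1 and 0.10 for Adgf-A. For Ph RNAi the same difference was -0.40 for wun, 2.88 for alpha-Est1 and 1.57 for Adgf-A. The nascent signal of alpha-Est1 was 0.033 of mock after Ph RNAi while its total RNA stood at 0.239 in the authors' deposited table. With the pseudocount of 581 in the nascent value, its difference came to 0.26 for Ph RNAi and -0.68 for Sce RNAi, so the 2.88 rests on a nascent mean below that mark. No replicate values were available for either kind of RNA, so these differences carry no test.

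**Figure D2:**
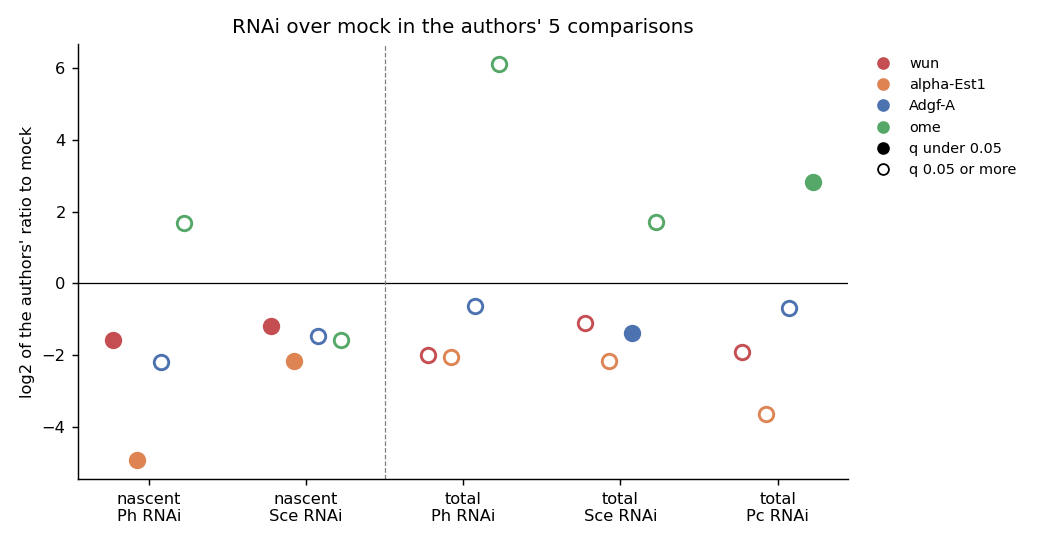
Log2 of the authors' ratio of RNAi to mock (vertical axis) for wun, alpha-Est1, Adgf-A and ome in the 2 nascent and 3 total RNA comparisons, with filled points where the authors' q was under 0.05. Points of wun, alpha-Est1 and Adgf-A lie below 0 in all 5 comparisons, and ome lies below 0 in nascent RNA after Sce RNAi alone.

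The nearest relatives of the 4 genes were read from lists of enzyme families, which were chosen with earlier results of these data known. Across the 5 lists 58 genes had values, and 23 of them (39.7%) had nascent ratios under 1 in both comparisons, near the 35.2% of all genes. The genes nearest to that limit were ATPCL, the citrate lyase of fatty acid synthesis, inside it with ratios of 0.997 after Ph RNAi and 0.803 after Sce RNAi, and clt, an esterase gene, outside it with 1.002 and 0.824. Ratios under 0.5 in both (1.57% of all genes) were found for 7 of the 58 genes. Of these, wun, alpha-Est1 and Adgf-A had been chosen for low signal, and the other 4 were wun2, Jhe, Msi and CG15828. Those 4 did not pass in nascent RNA, as the authors' deposited table lists q from 0.054 to 0.293 after Ph RNAi and from 0.289 to 0.523 after Sce RNAi.

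Of the lipid phosphate phosphatases 3 of 7 had values. The wun2 gene, a second wunen that lies next to wun, had a nascent mean of 5281 in the libraries labelled Ph RNAi and 5058 in those labelled Sce RNAi, against 17437 in mock. In total RNA wun2 fell after Ph RNAi to 0.156 of mock, for which the authors' deposited table lists a q of 0.042, and 0.367% of all genes fell there. Its ratios of 0.459 after Sce RNAi and 0.245 after Pc RNAi did not pass (q 0.237 and 0.13, authors' deposited table). CG11426, the third gene, had nascent ratios of 0.989 and 0.982.

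Of the carboxylesterases 7 of 16 had values, alpha-Est1 among them. Over the 6 with a mean above 581 the median nascent log2 ratio stood at -0.20 for Ph RNAi and -0.30 for Sce RNAi, against 0.03 and 0.01 over all 6942 such genes. Other genes of the alpha-esterase cluster lay on either side of mock. The nascent ratios were 1.5 after Ph RNAi and 0.773 after Sce RNAi for alpha-Est3, 3.14 and 2.02 for alpha-Est9, and 0.706 and 0.740 for alpha-Est10. For these the authors' deposited table lists q from 0.209 to 0.44 after Ph RNAi and from 0.489 to 0.644 after Sce RNAi, so none passed. Jhe, the juvenile hormone esterase gene, averaged 536 in the libraries labelled Ph RNAi, which is below 581, and 779 in those labelled Sce RNAi, against 2177 in mock. In total RNA its ratios were 1.002, 0.489 and 0.21 after Ph, Sce and Pc RNAi, and none passed (q 0.593, 0.465 and 0.495, authors' deposited table). Ace, which encodes acetylcholinesterase, rose 22.7-fold in total RNA after Ph RNAi (q 0.027, authors' deposited table), where 3.52% of all genes rose. Its total RNA ratios of 0.098 after Sce RNAi and 1.425 after Pc RNAi did not pass (q 0.403 and 0.604, authors' deposited table). The nascent means of Ace, 517 for Ph RNAi, 252 for Sce RNAi and 260 for mock, all lay below 581.

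Of the genes that handle adenosine 9 of 15 had values. Those whose call passed, beside Adgf-A in total RNA, were all calls of the receptor gene AdoR. AdoR rose 47.1-fold in nascent RNA after Ph RNAi, with means of 9919 in the libraries labelled Ph RNAi and 210 in mock (q 0.048, authors' deposited table), where 1.69% of all genes rose. Its mean was 176 in the libraries labelled Sce RNAi, or 0.838 of mock. The mock mean lay below 581, so the fold is uncertain, and with the pseudocount the nascent log2 ratio was 3.73. In total RNA AdoR rose 9.24-fold after Pc RNAi (q 0.029), and its ratio of 284 after Ph RNAi did not pass (q 0.111, authors' deposited table). Msi, an older symbol of Adgf-A2, which encodes another adenosine deaminase of the family, averaged 1260 in the libraries labelled Ph RNAi and 2130 in those labelled Sce RNAi, against 5461 in mock. Its total RNA ratios were 0.344, 0.308 and 0.295 after Ph, Sce and Pc RNAi. None passed (q 0.161, 0.248 and 0.301, authors' deposited table). The nucleoside transporter gene Ent2 had nascent ratios of 0.598 and 0.731 (q 0.218 and 0.534, authors' deposited table).

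Of the dipeptidyl and prolyl peptidases 6 of 8 had values, and ome after Pc RNAi in total RNA was their 1 call, in a comparison where 3.19% of all genes were called and 3.04% rose. The others had nascent ratios from 0.543 to 1.199. Of 43 genes of lipid synthesis, storage and transport 33 had values. Of the 33 genes 1 passed in the authors' deposited table, the lipase gene Lip4, which rose 10.9-fold in nascent RNA (q 0.034) and 4.03-fold in total RNA (q 0.043) after Ph RNAi. Of all genes 2.48% and 3.88% were called in these comparisons, so 1 gene of 33 is near the share over all genes. CG15828 (Apoltp), which encodes a lipid transfer apolipoprotein, had the lowest nascent ratios of this list, 0.085 after Ph RNAi and 0.135 after Sce RNAi (q 0.242 and 0.394, authors' deposited table). The list's median nascent log2 ratio stood at -0.11 for Ph RNAi and -0.01 for Sce RNAi.

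**Figure D3:**
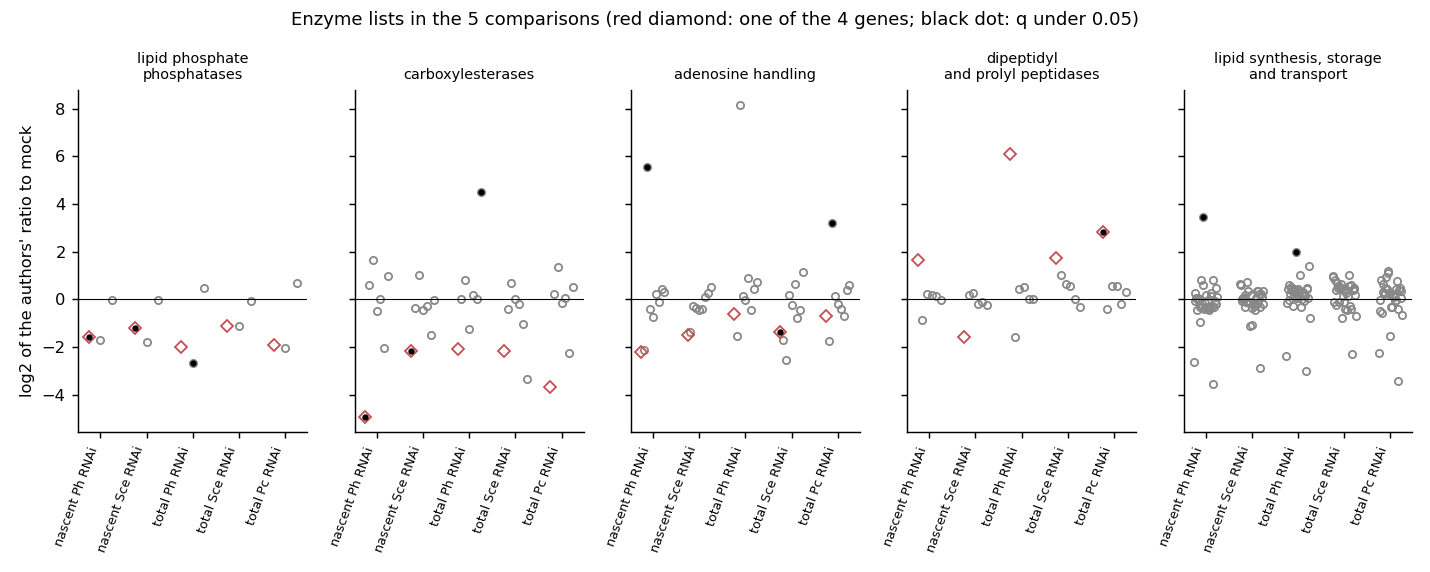
Log2 of the authors' ratio of RNAi to mock (vertical axis) for every gene with values in the 5 enzyme lists, in the 2 nascent and 3 total RNA comparisons. Red diamonds are wun, alpha-Est1, Adgf-A and ome, and black dots mark q under 0.05. AdoR at 47.1 times mock is the highest nascent point, and alpha-Est1 after Ph RNAi is the lowest.

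The genes next to each of the 4 were followed because neighbours can share signal or vary together. Gene order was taken from the RefSeq annotation (Release 6), and the nearest genes with values were used. Beside wun, wun2 was the 1 flanking gene below 0.5 of mock in both nascent comparisons. CG33774 on the other side had ratios of 0.591 and 0.692, l(2)k10201 beyond it had 0.576 and 1.375, and prel, beyond wun2, had 1.079 and 0.801. No protein-coding gene model overlaps that of wun or alpha-Est1. Around alpha-Est1 the nearest genes with values, alpha-Est3, alphaTub84D, Nlg1 and pyd3, had nascent ratios from 1.169 to 1.906 after Ph RNAi and from 0.773 to 2.881 after Sce RNAi. None of these 4 lay below 0.5 of mock in either comparison. They lie 3, 7, 4 and 9 places from alpha-Est1 in the annotation, so the genes adjacent to it had no values used here. Nlg1, which had the highest ratio in both comparisons, had a mean nascent signal below 581.

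Adgf-A lies in a group of genes with low ratios. Its model contains those of Msi (Adgf-A2) on the same strand and of CG32182 and CG32181 on the opposite strand. CG32182 fell in nascent RNA after Ph RNAi to 0.185 of mock, (q 0.021, authors' deposited table), and had a ratio of 0.553 after Sce RNAi (q 0.416). CG32181 had ratios of 0.246 and 0.569, and Msi had 0.231 and 0.390, with no call. The sources used here do not give whether counting used strand, so how far these 4 genes share reads was not tested, and the signal assigned to Adgf-A is uncertain in origin. Outside the model, CG7460 on one side had 0.220 and 0.379 (q 0.368 and 0.588, authors' deposited table). CG34251 beyond CG7460 had 0.902 and 1.125, and NUCB1 on the other side had 1.173 and 1.199. The Ph RNAi means of CG7460, at 346, and CG32181, at 267, lay below 581, so the size of their ratios is uncertain.

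The model of ome contains 8 other protein-coding models, on both strands, none with values analysed here. Its neighbours with values had other orders of means. The proteoglycan gene dlp stood at 2.481 times mock after Ph RNAi and 2.586 after Sce RNAi, and RecQ5, a DNA helicase gene, at 0.696 and 0.830. On the other side, 12 and 13 places away in the annotation, lie Trl, which encodes GAGA factor, and CG33260. Trl had 0.754 and 0.902, and CG33260 had 1.451 and 0.960. None of these 4 passed, with q in the authors' deposited table from 0.061 to 0.379 after Ph RNAi. Farther out, shd, which encodes an enzyme of ecdysone synthesis, fell in nascent RNA after Ph RNAi to 0.409 of mock (q 0.049, authors' deposited table) and had a ratio of 0.302 after Sce RNAi (q 0.083).

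**Figure D4:**
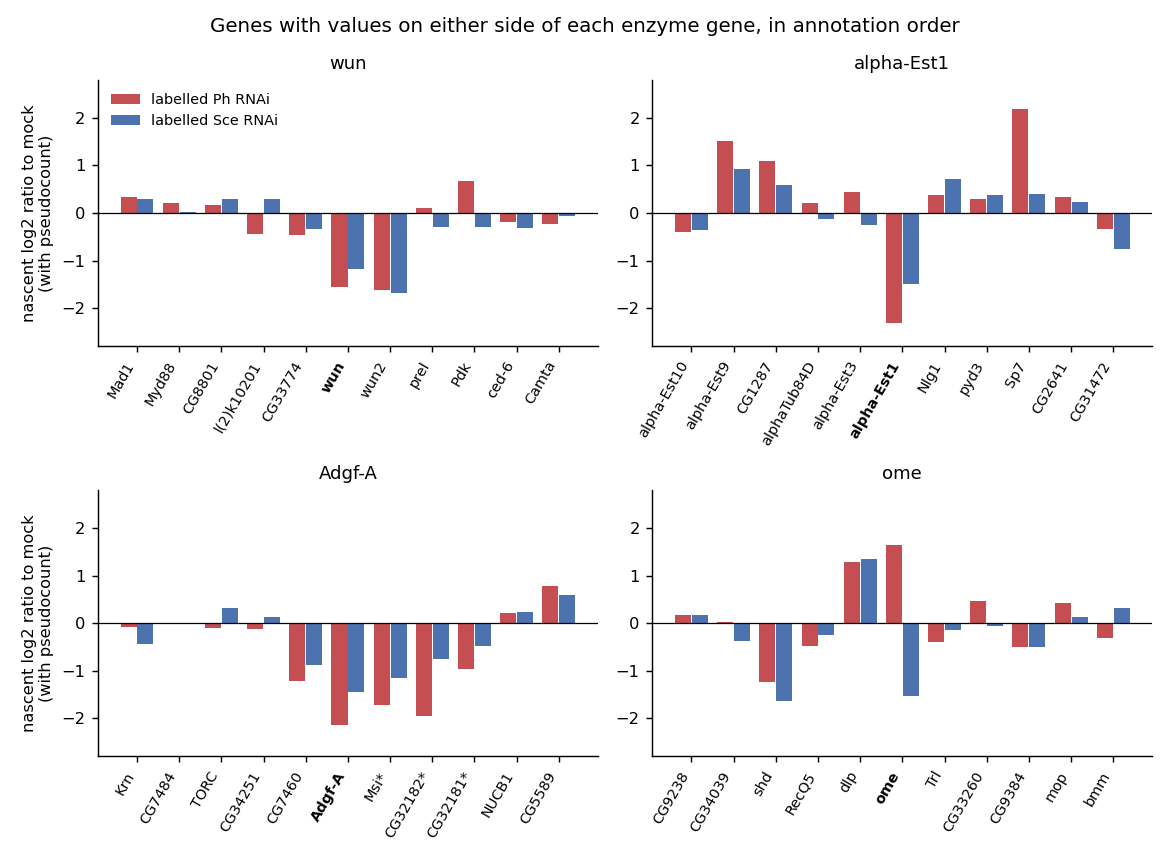
Nascent log2 ratio to mock with the pseudocount of 581 (vertical axis), in red for Ph RNAi and blue for Sce RNAi, of wun, alpha-Est1, Adgf-A and ome (bold) and the 5 nearest genes with values on each side, in annotation order and not to distance. Asterisks mark gene models that overlap that of the bold gene. Low bars continue into wun2 beside wun and into Msi, CG32182, CG32181 and CG7460 around Adgf-A, and shd near ome is low in both groups at 0.409 and 0.302 of mock.

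Genes with the most similar pattern were found by the Euclidean distance over the 5 log2 ratios, among genes with a mean nascent signal above 581. For wun they were arg, the arginase gene, at a distance of 0.72, Msi at 0.78 and wun2 at 0.85. For Adgf-A they were conv at 0.74, the semaphorin gene Sema-5c at 0.90 and CG13891 at 1.02. For alpha-Est1 they were farther away, with shf, a gene of Hedgehog distribution, at 1.39, the homeobox gene C15 at 1.95 and CR34335 at 1.96. For ome they were CG10440 at 1.62, the sterol-binding protein gene Npc2b at 1.86 and CG4797 at 1.90.

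The values of these genes are a description, since the same 5 ratios chose them. The nascent signal of shf was 0.289 and 0.259 of mock after Ph RNAi and Sce RNAi, and that of C15 was 0.109 and 0.273. CG10440, the nearest to ome, averaged 20672 in nascent RNA of the libraries labelled Ph RNAi and 4196 of those labelled Sce RNAi, against 7375 in mock. Its total RNA ratios in the authors' deposited table were 69.0 after Ph RNAi, 5.43 after Sce RNAi and 16.1 after Pc RNAi. The distances describe patterns over comparisons that share mock libraries and carry no test.

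Markers of cell types were read beside these results. Of 9 neuronal markers 4 had values, and their summed nascent signal was 516408 in the libraries labelled Ph RNAi and 616061 in those labelled Sce RNAi, against 888697 in mock. Most of that sum came from CadN alone, with 415033, 583322 and 863517 in the order Ph RNAi, Sce RNAi and mock. After Ph RNAi Nrg rose to 6.73 times mock (q 0.012) and CadN fell to 0.481 (q 0.036) in the authors' deposited table. There elav stood at 1.13 times mock (q 0.425) and futsch at 2.18 times mock (q 0.079). In total RNA Nrg rose to 3.06 times mock after Ph RNAi (q 0.028) and 3.66 after Pc RNAi (q 0.025, authors' deposited table). CadN, elav and futsch did not pass in any total RNA comparison. Of 11 blood cell markers 8 had values, and they summed to 2111830 in the libraries labelled Ph RNAi and 5429420 in those labelled Sce RNAi, against 5092630 in mock. Much of that sum came from the collagen genes vkg, with 528943, 1566870 and 1415310, and Cg25C, with 779776, 2421360 and 2029900, in the order Ph RNAi, Sce RNAi and mock. The blood cell genes Hml and eater averaged 378 and 301 in the libraries labelled Ph RNAi. They averaged 195 and 305 in those labelled Sce RNAi and 271 and 227 in mock, all below 581. Well above that mark in mock were srp at 73365, ush at 864812, Ppn at 656683 and Pxn at 52069. After Ph RNAi Ppn fell in nascent RNA to 0.313 of mock (q 0.044, authors' deposited table), where 0.787% of all genes fell. The nascent ratios of srp, ush and Pxn there were 0.665, 0.591 and 0.716, and none passed. In total RNA vkg rose after Pc RNAi to 2.55 times mock (q 0.038, authors' deposited table). Of 6 glial markers 5 had values, summing to 224930 after Ph RNAi and 120087 after Sce RNAi, against 98636 in mock. The glial gene repo stood at 41380, 1619 and 2890 in the same order and did not pass in nascent RNA (q 0.127 and 0.514, authors' deposited table). In total RNA repo rose to 54.0 times mock after Ph RNAi (q 0.004) and 5.38 after Pc RNAi (q 0.008, authors' deposited table). Of all genes, 3.52% and 3.04% rose in these comparisons. Its total RNA ratio of 2.37 after Sce RNAi did not pass (q 0.264, authors' deposited table). In nascent RNA after Ph RNAi nrv2 rose to 4.64 times mock (q 0.012, authors' deposited table), where 1.69% of all genes rose. The ratios of loco, moody and Gs2 there were 2.33, 0.890 and 0.666, and none passed (q 0.065, 0.39 and 0.525, authors' deposited table). In total RNA nrv2 rose to 2.10 times mock after Ph RNAi (q 0.015, authors' deposited table). Of 7 neural stem cell markers 3 had values, with sums of 41886, 14967 and 12496, of 7 muscle markers 2, with 405239, 288590 and 288298, and of 5 germ line markers 2, with 1523, 2968 and 3681. Each of these sums came mostly from 1 gene. These were pros, with 35791, 10829 and 10964, sls, with 405181, 288555 and 288297, and aub, with 1254, 1939 and 3103. The neural stem cell marker nub rose in nascent RNA after Ph RNAi to 11.5 times mock (q 0.012, authors' deposited table). Its mock mean of 330 lay below 581, so that fold is uncertain. In total RNA nub passed after Ph RNAi (ratio 3750, q 0.002) and Pc RNAi (511, q 0.034). Likewise pros passed there after Ph RNAi (29.3, q 0.023) and Pc RNAi (37.0, q listed at 0). After Sce RNAi neither passed in total RNA (q 0.274 and 0.246, authors' deposited table). No marker with a value was at 0, and the 6 fat body markers were not analysed here. The part of any of these cell types in the results was not tested.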

How the data were processed

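Per the file headers, the authors deposited 1 table with the mean nascent signal per gene of each group, and, for each comparison, a ratio of RNAi to mock with its p-value and q-value. Per the labels, nascent RNA came from chromatin and libraries kept native ends. SAMtools and bedtools are named in the submitters' processing notes. The sources used here do not give the aligner, build, annotation, strand handling, test or how q was computed. Depth per library is unknown. Nothing in the labels says that replicates were separate cultures. With the test not given, the spread that the deposited p-values measure is unknown and may be technical. The total RNA p-values come from libraries outside the 10 samples, and the samples listed do not describe their replicates. The 4 columns of total RNA means match no sample and were not used.

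A gene was called where the authors' q was under 0.05. Nascent log2 ratios used a pseudocount of 581, the 10th percentile of nascent means, which understates changes of low genes, and 6942 genes had a mean above it. Total RNA log2 ratios had none, with 0 read as 0.0005. Named genes were the 4 members, the targeted genes, list genes that passed, shared a family or lay next to a member, the 2 nearest genes with values on each side, and for each member the 3 genes nearest in pattern. ATPCL, clt, NUCB1, shd, CG32181, Jhe, Ent2, CG15828 and single markers were chosen after their values were seen. RefSeq (Release 6) matched 7544 of 7624 symbols. Members and lists were chosen with earlier results of these data known. The adjustment, distance and normalization code was tested on simulated data. Python 3.11.15, pandas 2.3.3 and NumPy 2.4.6 were used.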

Additional observations from a re-analysis of the deposited data

How the results depend on the processing

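No paired analysis was possible because the table holds group means without values per library, and for the same reason no library could be left out. With a pseudocount 10 times smaller or larger, the nascent log2 ratio of alpha-Est1 was -4.25 or -0.54 after Ph RNAi and -2.08 or -0.42 after Sce RNAi, as its signal is low. The value of -0.54 was the smallest of the 4 genes after Ph RNAi, and -4.25 the largest, so the size of its difference has no fixed rank among them. For wun, Adgf-A and ome these pseudocounts, quantile normalization and centring on the median gene kept every direction and moved no nascent ratio by over 1.5-fold. With ratios under 0.8 in place of 1, 1010 genes were below mock in both nascent comparisons, against 2686. The call of Adgf-A in total RNA after Sce RNAi was lost, at an adjusted p of 0.141, when Benjamini-Hochberg adjustment read a deposited p of 0 as 0.0005, a choice made after seeing the data. Under that adjustment 0 genes were called in total RNA after Sce RNAi, against 19 by the authors' q and 27 with the entry read as 0, and 882 had an unadjusted p under 0.05. In nascent RNA after Sce RNAi the same counts were 0, 9, 23 and 755, so the calls of wun and alpha-Est1 there were lost too. Whether they rest on an unrounded p is unknown, as how q was computed is not given. No other total RNA call of the 4 genes changed under a q of 0.1 or either adjustment. By total RNA alone, 0 of the 3 nearest genes of wun, 2 of alpha-Est1, 1 of Adgf-A and 0 of ome stayed among the nearest. The deposited means give no depth, so no counting error can be set beside them.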
